A study of Mus musculus with 10 samples.

Results

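Toll-like receptor (TLR) signalling in macrophages switches on, along with inflammatory genes, a set of genes whose products restrain it. Expression of 10 of these negative feedback regulators, listed by Ensembl gene ID, was followed in bone marrow-derived macrophages of Atf3-/- and wild type mice. They were Irak3 (ENSMUSG00000020227), Tnfaip3 (ENSMUSG00000019850), Tnip1 (ENSMUSG00000020400), Tnip3 (ENSMUSG00000044162), Zc3h12a (ENSMUSG00000042677), Zfp36 (ENSMUSG00000044786), Socs1 (ENSMUSG00000038037), Socs3 (ENSMUSG00000053113), Cish (ENSMUSG00000032578) and Ier3 (ENSMUSG00000003541). Probesets for 9 of the 10 were among the 16860 gene-level probesets of the table, and Tnip3 was not analysed here.

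The macrophages were grown from femoral marrow of C57BL/6J mice aged 8 to 12 weeks, all given as female in the labels, with recombinant human M-CSF. RNA was hybridised to Affymetrix mouse genome arrays. The groups were Atf3-/- cells given LPS at 10 ng/mL for 4 h (2 arrays), wild type cells given the same LPS (2 arrays), unstimulated Atf3-/- cells (3 arrays) and unstimulated wild type cells (3 arrays). The design asks whether the response to LPS, the Gram-negative cell wall component sensed by TLR4, depends on Atf3, a bZIP transcription factor that TLR signals induce. The labels name neither the Atf3 allele nor the mouse behind each array. The p-values therefore measure variation among these arrays, part or all of which could be technical. Values are the authors' log2 expression per probeset, so a difference of 1 is a 2-fold change.

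Feedback on TLR4 acts at several levels. IRAK-M, the product of Irak3, blocks release of the kinases that leave the activated receptor. A20, encoded by Tnfaip3, edits ubiquitin chains on signalling proteins such as RIPK1 and TRAF6, and the ABIN proteins encoded by Tnip1 and Tnip3 bind both A20 and ubiquitin. Tristetraprolin (Zfp36) and Regnase-1 (Zc3h12a) destroy cytokine mRNAs, and Socs1, Socs3 and Cish encode SH2 proteins that damp cytokine receptors signalling through JAK and STAT. Ier3 is an immediate early gene whose product affects cell survival and ERK and NF-kB signalling.

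The arrays also divided in a way that cut across the groups. The log2 value of ENSMUSG00000086503 was between 8.95 and 9.57 in 5 arrays, while the remaining 5 ranged from 2.94 to 3.76. In the same arrays 3 other probesets showed the reverse. ENSMUSG00000069045 was between 2.94 and 3.26 in the first 5 arrays and between 8.29 and 8.71 in the others, ENSMUSG00000068457 between 2.87 and 3.26 and between 6.29 and 7.41, and ENSMUSG00000069049 between 2.80 and 3.03 and between 4.54 and 5.44. Such opposed on/off values are the kind that genes of the sex chromosomes give. These IDs could not be paired with symbols here, so whether the division is one of male and female mice, against the labels, was not tested. The high arrays were all 3 unstimulated wild type arrays, 0 of the 2 wild type LPS arrays, and 1 array in each Atf3-/- group (LPS replicate 2 and unstimulated replicate 3). In wild type this division and LPS cannot be told apart, and a fit with the division as a covariate takes its effect from the Atf3-/- arrays and assumes the same effect in wild type. Results on the members are also given from that fit where a call differed there. Array medians lay between 5.45 and 5.56. The level of Atf3 itself and of macrophage markers was not analysed here, because only the IDs of the listed regulators could be paired with symbols.

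LPS raised all 9 measured regulators in both genotypes. In Atf3-/- cells all 9 passed the threshold of a limma adjusted p of 0.05 as higher, where 16.5% of all probesets were called higher and 41.1% were called in either direction. In wild type cells all 9 were likewise called higher, where 17.8% of all probesets were called higher and 41.3% in either direction. The median log2 response of the 9 was 2.49 in Atf3-/- cells and 2.99 in wild type cells, beside medians over all probesets of 0.06 and 0.02. The responses of the members ran from 1.14 for Irak3 to 7.83 for Socs3 in Atf3-/- cells, and from 1.72 for Socs1 to 8.28 for Socs3 in wild type cells. With the array division as a covariate the LPS calls in Atf3-/- cells held. Those in wild type cells did too, but only under the assumption that the division acts alike in both genotypes, since wild type arrays alone cannot separate it from LPS. In RNA from whole cultures, a change in the level per cell and a change in the share of cells of a type cannot be told apart.

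**Figure D1:**
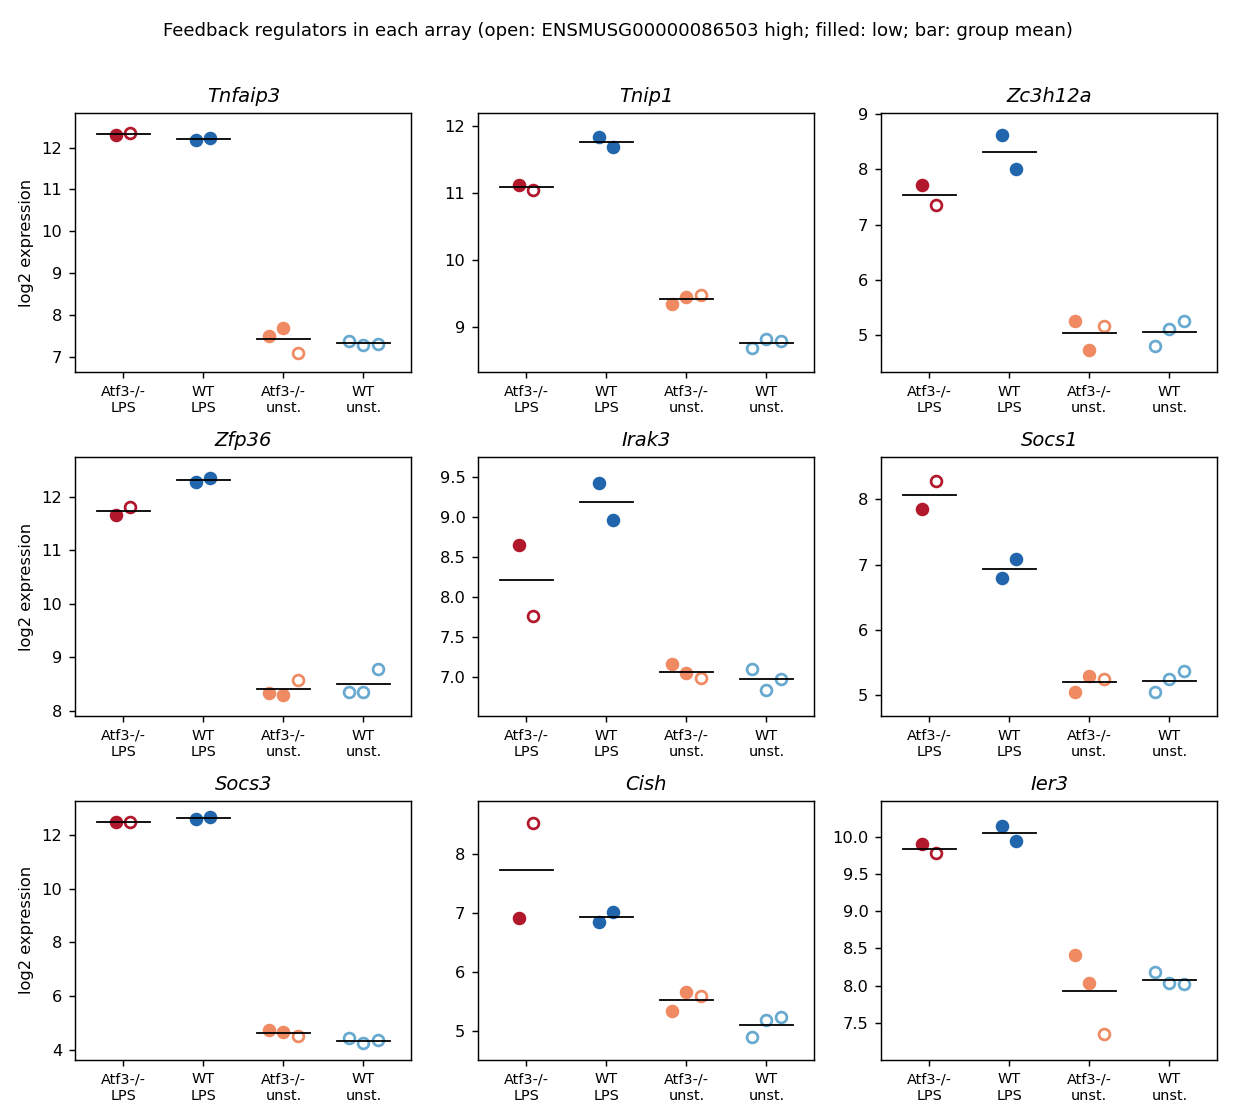
Log2 expression of each regulator in every array, with groups on the horizontal axis, points for arrays and bars for group means; open points mark arrays with high ENSMUSG00000086503. For all 9 genes the arrays with LPS lie above those without, where 66% of all probesets in Atf3-/- cells and 60% in wild type cells also did not overlap between these groups, and for Socs1 both Atf3-/- LPS arrays (7.85 and 8.29) lie above both wild type LPS arrays (6.80 and 7.08).

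The genotypes differed in the size of that response for 2 of the 9 regulators. The response difference (Atf3-/- minus wild type) passed the threshold below 0 for Tnip1 and above 0 for Socs1. Over all probesets 5.96% were called, 2.38% above 0 and 3.58% below. After LPS, 3 of 9 differed between genotypes (3.93% of all probesets), with Socs1 higher and Tnip1 and Irak3 lower in Atf3-/- cells, where each direction held 1.96% of all probesets. Without LPS only Tnip1 of the 9 was called, as higher in Atf3-/- cells (12.8% of all probesets called, 7.16% higher). Estimated response differences lay below 0 for 6 regulators and above 0 for 3, with a median of -0.44 beside 0.02 over all probesets. Each response difference contains the wild type LPS response, in which LPS and the array division cannot be told apart. The genotype comparisons within a state were not balanced for the division either. Without LPS 3 wild type arrays and 1 Atf3-/- array were high, and after LPS 0 and 1. The arrays of the genotypes did not overlap for 8 of 9 regulators after LPS and for 3 of 9 without, where 41% and 34.1% of all probesets did not overlap either. With so few arrays a lack of overlap is common, and it is given below as a description.

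**Figure D2:**
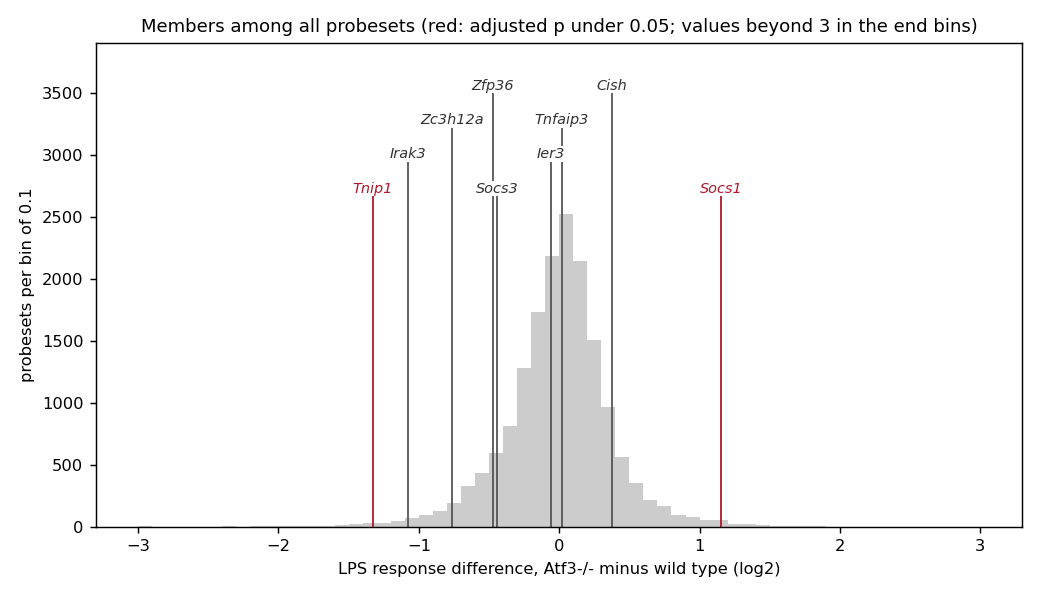
Histogram of the LPS response difference (Atf3-/- minus wild type, log2) over all probesets, in bins of 0.1, with a line for each regulator. Tnip1 (-1.33) and Socs1 (1.15), in red, passed the threshold, and Tnfaip3 (0.02) and Ier3 (-0.06) lie at the centre.

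At the receptor complex, Irak3 encodes a pseudokinase of the IRAK family found mainly in monocytes and macrophages. Its log2 level was 8.65 and 7.77 in the Atf3-/- LPS arrays, against 9.43 and 8.97 in the wild type LPS arrays. Unstimulated arrays gave 7.17, 7.05 and 6.99 in Atf3-/- cells, against 7.10, 6.85 and 6.98 in wild type cells. The LPS groups did not overlap, the unstimulated groups did, and the Atf3-/- LPS arrays lay far apart. LPS raised Irak3 2.21-fold in Atf3-/- cells (log2 difference 1.14, SE 0.22, adjusted p = 0.00122) and 4.67-fold in wild type cells (2.22, SE 0.22, adjusted p = 5.13e-06). In Atf3-/- cells the response was 0.70 without LPS replicate 1 and 1.58 without LPS replicate 2.

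The Irak3 response difference of -1.08 (95% interval -1.75 to -0.41) missed the threshold at an adjusted p of 0.0608. It was -0.56 (adjusted p = 0.509) with the array division as a covariate, and it was called in 4 of 16 alternative fits. These included the fit without Atf3-/- LPS replicate 1 (-1.52) and the fit without wild type LPS replicate 2. In the latter fit the difference of -1.31 only just passed the threshold. It was -0.64 (adjusted p = 0.161) without Atf3-/- LPS replicate 2 and -0.85 (adjusted p = 0.226) without wild type LPS replicate 1. After LPS, Irak3 was lower in Atf3-/- cells. The log2 level there differed from wild type by -0.99 with an SE of 0.24 (adjusted p = 0.0414), and wild type was 1.98-fold higher. This call was near the threshold. With the array division as a covariate the difference was -0.76 (adjusted p = 0.110). It was -0.54 (adjusted p = 0.234) without Atf3-/- LPS replicate 2 and -0.76 (adjusted p = 0.313) without wild type LPS replicate 1. It also missed the threshold when any 1 of the 6 unstimulated arrays was left out, at adjusted p-values of 0.0598 to 0.0666, with array medians subtracted (adjusted p = 0.0581) and in a fit of only the 4 LPS arrays (adjusted p = 0.275).

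Tnfaip3 and Tnip1 encode ubiquitin regulators that act together. Tnfaip3 was at 12.30 and 12.36 (log2) in Atf3-/- LPS arrays, against 12.18 and 12.22 in wild type LPS arrays. Without LPS it was at 7.52, 7.69 and 7.10 in Atf3-/- arrays, against 7.39, 7.29 and 7.32 in wild type arrays. Both Atf3-/- LPS arrays were slightly above both wild type LPS arrays, and the unstimulated groups overlapped. The rise was 29.6-fold in Atf3-/- cells (log2 difference 4.89, SE 0.14, adjusted p = 4.25e-10) and 29.3-fold in wild type cells (4.87, SE 0.14, adjusted p = 3.01e-10). No difference between these responses was detected (0.02, 95% interval -0.43 to 0.47, adjusted p = 0.973).

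Tnip1 was at 11.12 and 11.04 in Atf3-/- LPS arrays, against 11.83 and 11.68 in wild type LPS arrays. Unstimulated arrays gave 9.34, 9.44 and 9.47 in Atf3-/- cells, against 8.68, 8.82 and 8.79 in wild type cells. Neither pair of groups overlapped, and the order of the genotypes was opposite in the 2 states. In unstimulated cells Tnip1 was 1.57-fold higher in Atf3-/- (log2 difference 0.65, SE 0.09, adjusted p = 9.18e-04). After LPS the log2 difference was -0.68 (SE 0.11, adjusted p = 0.00475).

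Tnip1 rose 3.16-fold with LPS in Atf3-/- cells (1.66, SE 0.10, adjusted p = 1.15e-07) and 7.95-fold in wild type cells (2.99, SE 0.10, adjusted p = 6.97e-10). The fit with the array division as a covariate assumes that the division acts alike in both genotypes, since wild type arrays cannot separate it from LPS. The response difference was -1.33 (SE 0.14, adjusted p = 9.11e-04), which ranked 109 from the lowest among the 16860 probesets. It was called in all 16 alternative fits, between -1.40 and -1.25, and at -1.34 (adjusted p = 0.0133) with the array division as a covariate. The lower level after LPS missed the threshold without wild type LPS replicate 1, at -0.60 (adjusted p = 0.0555), and in a fit of only the 4 LPS arrays (adjusted p = 0.0972).

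**Figure D3:**
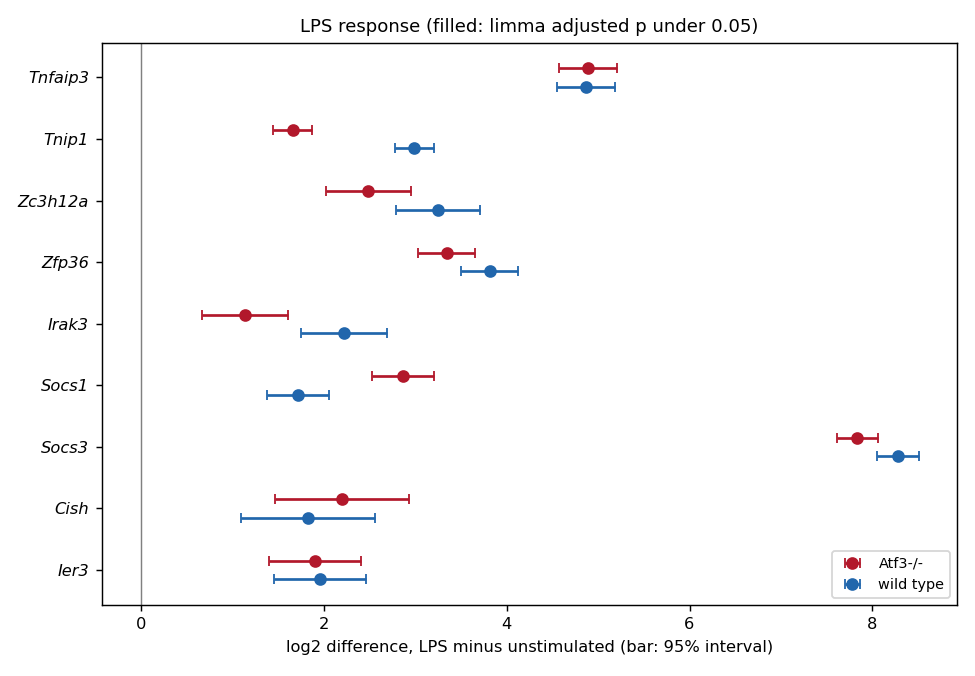
LPS response of each regulator as a log2 difference, LPS minus unstimulated, with 95% intervals, for Atf3-/- (upper point) and wild type (lower point). Filled points passed the threshold, as all do; intervals of the genotypes are apart for Tnip1, Irak3 and Socs1.

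Promoters were read from RefSeq (GRCm38.p6), as 250 bases before to 50 after each start, in the direction of transcription, and all 10 listed genes matched. The windows of Tnfaip3 (the upstream of its 2 starts, chr10:19015361-19015660, minus strand) and Tnip1 (chr11:54962891-54963190, minus strand) are shown because Tnip1 passed the test of the response difference and its partner Tnfaip3 did not. Capitals mark matches on either strand to the kappa-B consensus, to the STAT site TTCNNNGAA and to the AP-1 site TGANTCA, and the shorter ATF/CRE sequence is not capitalised.
Tnfaip3: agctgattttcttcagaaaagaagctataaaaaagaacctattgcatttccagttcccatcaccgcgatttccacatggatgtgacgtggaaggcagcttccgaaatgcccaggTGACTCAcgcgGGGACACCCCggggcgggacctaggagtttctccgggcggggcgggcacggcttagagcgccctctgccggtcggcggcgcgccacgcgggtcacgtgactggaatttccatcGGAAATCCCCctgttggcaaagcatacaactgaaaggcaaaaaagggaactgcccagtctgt
Tnip1: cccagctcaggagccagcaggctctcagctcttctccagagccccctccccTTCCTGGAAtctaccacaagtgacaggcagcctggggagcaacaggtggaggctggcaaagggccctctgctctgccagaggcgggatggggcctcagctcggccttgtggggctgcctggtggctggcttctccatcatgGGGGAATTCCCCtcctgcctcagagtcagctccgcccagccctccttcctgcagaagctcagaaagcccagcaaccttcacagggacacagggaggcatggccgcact
The Tnfaip3 window holds an AP-1 match at -136 to -130, a kappa-B match at -125 to -116 and another at -12 to -3, counted from the start. The Tnip1 window holds a STAT match at -199 to -191 and 3 overlapping kappa-B matches in the stretch from -58 to -47.

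A kappa-B match was in 3 of the 11 windows of the 9 measured genes (Tnfaip3, Tnip1 and Ier3). Of all 32851 RefSeq windows 8.46% hold one. The full ATF/CRE site TGACGTCA was in none of the 11 windows and in 1.79% of all windows. The shorter ATF/CRE sequence TGACG was in 4 of the 11 windows (Tnfaip3, Zc3h12a, Irak3 and Cish), and in 20.8% of all windows. An AP-1 match was in 1 of the 11 windows, that of Tnfaip3, and in 7.81% of all windows. A match describes the letters of the window and does not show that a factor binds there.

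**Figure D4:**
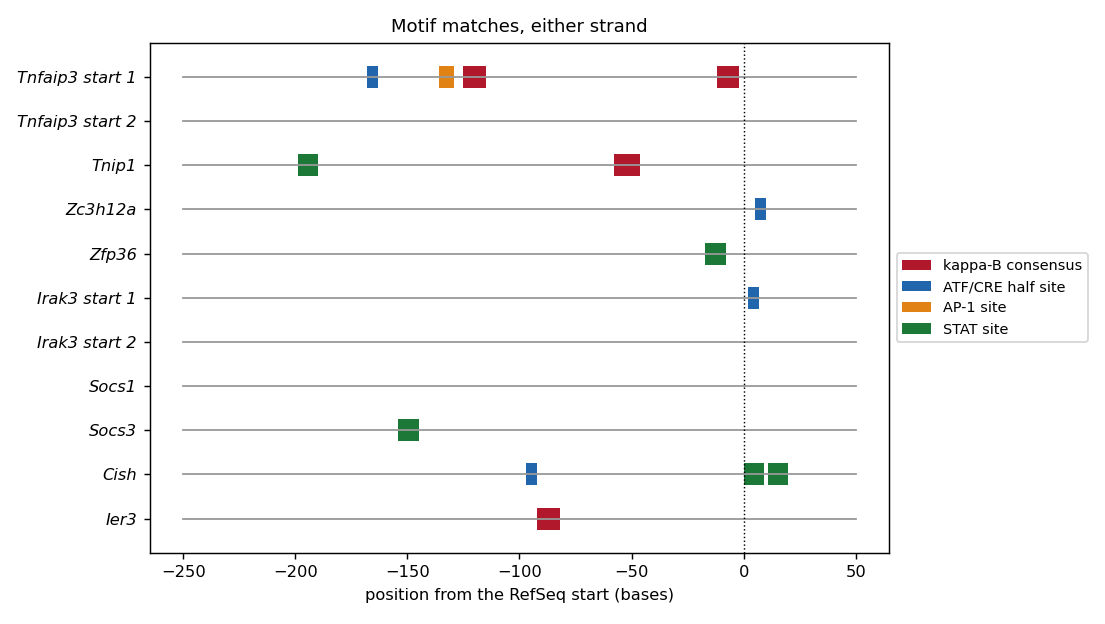
Motif matches on either strand in the promoter windows of the 9 measured regulators, by position from the RefSeq start in bases. Kappa-B matches lie in Tnfaip3, Tnip1 and Ier3, STAT matches in Tnip1, Zfp36, Socs3 and Cish, and Socs1 has no match.

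The RNA-decay genes rose in both genotypes. Zfp36 was at 11.67 and 11.82 (log2) in Atf3-/- LPS arrays, against 12.28 and 12.34 in wild type LPS arrays. Without LPS it was at 8.33, 8.30 and 8.56 in Atf3-/- arrays, against 8.35, 8.35 and 8.78 in wild type arrays. The LPS groups did not overlap, while the unstimulated groups did. The response was 3.34 in Atf3-/- cells (SE 0.14, adjusted p = 8.07e-09) and 3.82 in wild type cells (SE 0.14, adjusted p = 1.82e-09). Neither the response difference (-0.47, adjusted p = 0.203) nor the difference after LPS (-0.57, 95% interval -0.91 to -0.23, adjusted p = 0.0746) passed the threshold. The difference after LPS passed it under quantile normalization (-0.73, adjusted p = 0.0354) and without unstimulated wild type replicate 3 (-0.57, adjusted p = 0.0300), and missed it without any 1 of the other 9 arrays (adjusted p up to 0.240).

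Zc3h12a was at 7.72 and 7.35 in Atf3-/- LPS arrays, against 8.62 and 8.01 in wild type LPS arrays. Unstimulated arrays gave 5.25, 4.73 and 5.16 in Atf3-/- cells, against 4.81, 5.12 and 5.26 in wild type cells. The LPS groups did not overlap, and the unstimulated groups did. Regnase-1 mRNA rose 5.61-fold in Atf3-/- cells (2.49, SE 0.21, adjusted p = 2.36e-06) and 9.51-fold in wild type cells (3.25, SE 0.21, adjusted p = 1.80e-07). The difference after LPS was -0.78 (95% interval -1.29 to -0.27, adjusted p = 0.0973) and depended on single arrays. It was -1.08 (adjusted p = 0.0431) without wild type LPS replicate 2, -0.48 (adjusted p = 0.557) without wild type LPS replicate 1 and -0.60 (adjusted p = 0.428) without Atf3-/- LPS replicate 2. The response difference was -0.76 (adjusted p = 0.166), and ran from -1.06 to -0.46 as single arrays were left out, with no call.

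Socs1, a direct inhibitor of JAK kinases and a brake on interferon signalling, was at 7.85 and 8.29 (log2) in Atf3-/- LPS arrays, against 6.80 and 7.08 in wild type LPS arrays. Without LPS it was at 5.05, 5.30 and 5.25 in Atf3-/- arrays, against 5.04, 5.25 and 5.38 in wild type arrays. Unstimulated levels overlapped closely, and after LPS the genotypes were apart. Socs1 rose 7.31-fold in Atf3-/- cells (2.87, SE 0.15, adjusted p = 5.03e-08) and 3.29-fold in wild type cells (1.72, SE 0.15, adjusted p = 2.55e-06).

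After LPS, Socs1 was 2.18-fold higher in Atf3-/- cells (1.13, SE 0.17, adjusted p = 0.00323), and 1.01 (adjusted p = 0.0116) with the array division as a covariate. It missed the threshold in a fit of only the 4 LPS arrays (adjusted p = 0.0722). The response difference was 1.15 (SE 0.22, adjusted p = 0.0132), which ranked 116 from the highest among the 16860 probesets. It missed the threshold with the covariate (0.88, adjusted p = 0.161) and without wild type LPS replicate 1 (1.01, adjusted p = 0.0669), and was called in the other 14 alternative fits.

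Socs3, which restrains signalling through the IL-6 receptor subunit gp130, had the largest LPS response of the 9. Its log2 level was 12.47 in both Atf3-/- LPS arrays, against 12.58 and 12.65 in wild type LPS arrays. Unstimulated arrays gave 4.75, 4.65 and 4.51 in Atf3-/- cells, against 4.42, 4.25 and 4.35 in wild type cells. The rise was 228-fold in Atf3-/- cells (7.83, SE 0.10, adjusted p = 4.49e-13) and 310-fold in wild type cells (8.28, SE 0.10, adjusted p = 2.90e-13). The response ranked 8 from the highest among the 16860 probesets in Atf3-/- cells and 6 in wild type cells. All 6 unstimulated levels lay below the array medians, as did the 6 of Socs1 and the 6 of Zc3h12a. The Socs3 groups of each state were apart, but the genotype differences missed the threshold without LPS (0.30, adjusted p = 0.0564) and after it (-0.15, adjusted p = 0.632). The first was called once dim probesets were removed (adjusted p = 0.0475). The response difference was -0.44 (95% interval -0.76 to -0.12, adjusted p = 0.0995).

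Cish, a STAT5-induced inhibitor of cytokine receptors, was at 6.92 and 8.53 in Atf3-/- LPS arrays, against 6.85 and 7.01 in wild type LPS arrays. Without LPS it was at 5.33, 5.66 and 5.59 in Atf3-/- arrays, against 4.89, 5.19 and 5.24 in wild type arrays. The unstimulated groups did not overlap, with Atf3-/- higher. One Atf3-/- LPS array stood well above the other, which lay between the wild type LPS arrays. Cish rose by 2.20 in Atf3-/- cells (SE 0.33, adjusted p = 2.50e-04) and by 1.83 in wild type cells (SE 0.33, adjusted p = 8.30e-04). In Atf3-/- cells the rise was 1.40 without LPS replicate 2 and 3.00 without LPS replicate 1.

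For Cish the difference after LPS was 0.80 (SE 0.37, adjusted p = 0.320), the response difference 0.37 (SE 0.47, adjusted p = 0.716) and the unstimulated difference 0.42 (SE 0.30, adjusted p = 0.405). These calls turned on the Atf3-/- LPS arrays. Without LPS replicate 1 the difference after LPS was 1.60 (adjusted p = 5.50e-04) and the response difference 1.18 (adjusted p = 0.00972). Without LPS replicate 2 both were below 0, at -0.00531 (adjusted p = 0.996) and -0.43 (adjusted p = 0.338). With either 1 of the Atf3-/- LPS arrays left out, the unstimulated difference was unchanged in size and was called. It was also called in a limma fit of only the unstimulated arrays (0.42, SE 0.12, adjusted p = 0.0452). The array with high Cish was also the Atf3-/- LPS array with high ENSMUSG00000086503, and had the lower Irak3 and the higher Socs1 level of the pair. With the array division as a covariate the Cish difference after LPS was 0.43, the unstimulated difference 0.92 (adjusted p = 0.0935) and the response difference -0.50, none of them called.

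The windows of the SOCS genes are shown because Socs1 alone of the 3 passed the test of the response difference. They are Socs1 (chr16:10785487-10785786, minus strand), Socs3 (chr11:117969317-117969616, minus strand) and Cish (chr9:107296409-107296708, plus strand), with STAT matches (TTCNNNGAA) in capitals.
Socs1: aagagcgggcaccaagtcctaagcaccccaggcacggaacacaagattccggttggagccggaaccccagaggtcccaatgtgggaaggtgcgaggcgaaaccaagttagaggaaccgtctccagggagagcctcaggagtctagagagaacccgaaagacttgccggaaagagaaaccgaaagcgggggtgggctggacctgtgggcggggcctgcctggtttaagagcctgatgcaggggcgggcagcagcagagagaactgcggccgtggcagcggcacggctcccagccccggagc
Socs3: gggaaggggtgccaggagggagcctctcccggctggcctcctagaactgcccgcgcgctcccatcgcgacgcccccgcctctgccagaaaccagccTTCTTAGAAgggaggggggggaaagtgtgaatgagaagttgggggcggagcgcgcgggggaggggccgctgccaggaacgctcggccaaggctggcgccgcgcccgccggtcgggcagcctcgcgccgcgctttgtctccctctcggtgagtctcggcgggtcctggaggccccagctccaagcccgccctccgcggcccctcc
Cish: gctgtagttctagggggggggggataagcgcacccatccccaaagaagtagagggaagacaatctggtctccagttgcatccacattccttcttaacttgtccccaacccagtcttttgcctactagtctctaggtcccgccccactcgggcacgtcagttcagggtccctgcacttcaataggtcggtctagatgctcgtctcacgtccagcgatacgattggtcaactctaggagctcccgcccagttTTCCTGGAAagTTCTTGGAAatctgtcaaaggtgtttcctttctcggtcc
Cish holds 2 STAT matches, at 1 to 9 and 12 to 20 from the start, Socs3 holds 1 at -154 to -146, and Socs1 holds 0. A STAT match was in 4 of the 11 windows of the 9 measured genes, Tnip1 and Zfp36 included. Of all RefSeq windows 8.3% hold one.

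**Figure D5:**
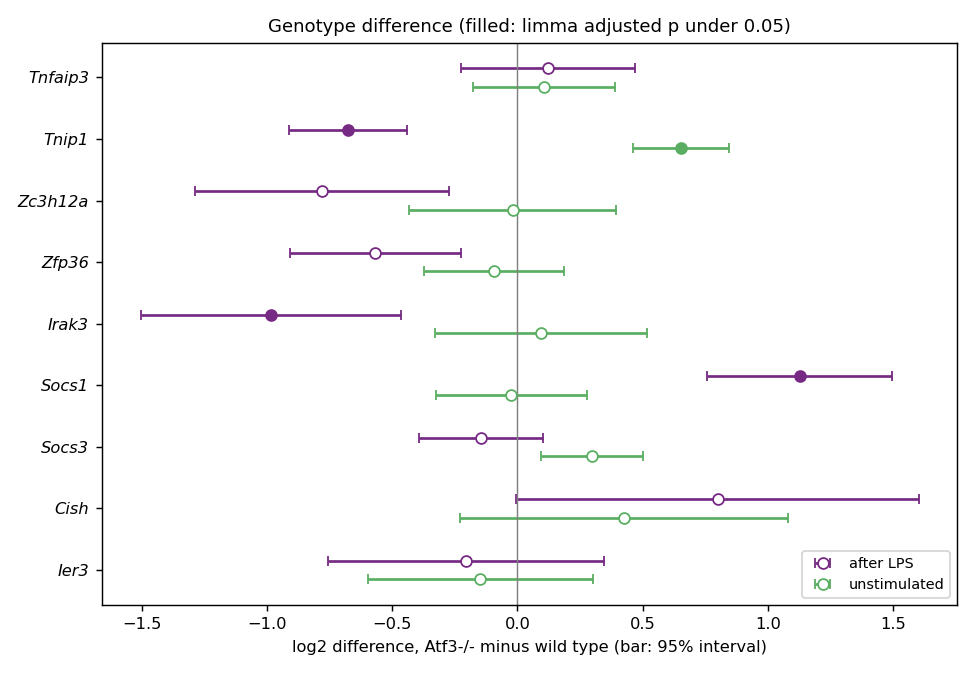
Genotype difference (Atf3-/- minus wild type, log2) of each regulator with 95% intervals, after LPS (upper point) and without LPS (lower point). Filled points passed the threshold: Tnip1 in both states with opposite signs (-0.68 after LPS and 0.65 without), Irak3 (-0.99) and Socs1 (1.13) after LPS.

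Ier3, the immediate early survival gene, was at 9.90 and 9.78 in Atf3-/- LPS arrays, against 10.14 and 9.94 in wild type LPS arrays. Unstimulated arrays gave 8.41, 8.03 and 7.35 in Atf3-/- cells, against 8.18, 8.03 and 8.02 in wild type cells. The genotypes overlapped without LPS, where the Atf3-/- arrays spread widely, and the highest wild type array stood above the others after LPS while the lowest lay just above both Atf3-/- arrays. Ier3 rose 3.75-fold in Atf3-/- cells (1.91, SE 0.23, adjusted p = 4.11e-05) and 3.90-fold in wild type cells (1.97, SE 0.23, adjusted p = 2.32e-05). The response difference of -0.06 (95% interval -0.77 to 0.65, adjusted p = 0.947) has a wide interval on both sides of 0.

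Across the 10 arrays, as a description, the log2 values of Tnfaip3 were most like those of Socs3 (Pearson r = 0.998), those of Irak3 most like Zc3h12a (r = 0.958), and those of Socs1 most like Cish (r = 0.953). These correlations compare the 9 regulators only, and all of them share the division of the arrays by LPS.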

How the data were processed

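Total RNA of mouse macrophages was measured on 10 Affymetrix arrays. The deposited values are log2 expression per gene-level probeset, made by the authors with CustomCDF probesets of version 13, per the labels' design text. The submitters' processing notes name affy 1.26.1. How background, normalization and summarisation were handled is not given in the sources used here. No depth applies to arrays, and their number limits the precision.

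Groups came from sample titles. One limma 3.58.1 model (R 4.3.3, lmFit and eBayes) was fitted to all 16860 probesets and 10 arrays with 1 mean per group (6 residual and 5.44 prior degrees of freedom). Two-sided p-values were adjusted by Benjamini and Hochberg's method across the whole table, with a threshold of 0.05, and intervals are at 95%. The script was tested on simulated data. Motif matches were counted in 300-base RefSeq windows with Python 3.11.15.

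The rule for named genes took all listed regulators, and likeness was taken over genes with a symbol. The members, lists and alternatives were chosen with earlier results of these data known. Symbols for the members came with the list. The table's other Ensembl IDs could not be paired with the RefSeq table used, so further lists of TLR4, JAK-STAT and decay-target genes, cell markers and Atf3 were not analysed here.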

Additional observations from a re-analysis of the deposited data

Results flagged for a closer look

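For 2 regulators the difference between the genotypes' LPS responses passed limma's test as a contrast of its own. The response difference (Atf3-/- minus wild type) was -1.33 for Tnip1 (SE 0.14, adjusted p = 9.11e-04), with LPS responses of 1.66 in Atf3-/- cells and 2.99 in wild type cells. It was 1.15 for Socs1 (SE 0.22, adjusted p = 0.0132), with LPS responses of 2.87 in Atf3-/- cells and 1.72 in wild type cells. With the array division as a covariate these were -1.34 (adjusted p = 0.0133) and 0.88 (adjusted p = 0.161). Both values assume that the division acts alike in both genotypes, since in wild type it cannot be told apart from LPS. No group held the 4 or more arrays needed to look for a single outlying array.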

How the results depend on the processing

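Of 24 calls on single regulators, 20 held in every alternative fit and 0 changed sign. The exceptions were Irak3, Tnip1 and Socs1 after LPS and the Socs1 response difference, whose values are given above. Of 21 results not called, 14 stayed so and 11 changed sign somewhere.

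The 9 regulators called for LPS in each genotype numbered 9 in all fits. The 2 response differences became 1 with the array division as a covariate, and 1 to 4 as single arrays were left out. The 1 difference without LPS became 2 after removing dim probesets and 2 in a fit of only the arrays compared (1 to 2 with arrays left out). The 3 differences after LPS became 0 by limma in a fit of only the 4 arrays compared (5 at an unadjusted p under 0.05), and 1 to 4 with arrays left out. Where 1 array was left in a group, it was assumed to vary like the others.

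With the replicate number as a block 5 differences after LPS were called, Zc3h12a (adjusted p = 0.0499) and Zfp36 (0.0181) being added, and the Irak3 response difference passed (0.0187). Deviations of same-numbered arrays correlated at -0.07 to 0.30, over 0.1 in 7 of 13 pairs, and 3 of 6 unstimulated arrays were closest to their own number. The pairs are not all separate evidence. In a group of 2 arrays the deviations mirror each other, so both pairs between the LPS groups gave the same 0.19. Since not every pair passed 0.1 and no label gives a shared mouse or day, the fit without the block was kept. Whether some arrays are paired was not settled.

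Sign changes concerned differences that were not called. With the covariate the response difference was -0.50 for Cish and 0.59 for Ier3, the unstimulated difference -0.0697 for Tnfaip3, 0.0415 for Zfp36, -0.20 for Irak3 and 0.13 for Socs1, and the difference after LPS 0.0710 for Ier3. Under quantile normalization the Ier3 response difference was 0.0173. With arrays left out, response differences ran from -0.15 to 0.14 for Tnfaip3, -0.43 to 1.18 for Cish and -0.35 to 0.18 for Ier3. Unstimulated differences ran from -0.0218 to 0.27 for Tnfaip3, -0.14 to 0.14 for Zc3h12a, -0.18 to 0.0504 for Zfp36, -0.11 to 0.0527 for Socs1 and -0.39 to 0.14 for Ier3, and the Cish difference after LPS from -0.00531 to 1.60. The cause was not tested.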
